A study of Rattus norvegicus with 9 samples.

Results

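The genes described here are the receptors through which microglia sense extracellular nucleotides, adenosine and lysophosphatidylserine, together with the enzyme that removes extracellular ATP. They were taken by name from the gene table: P2ry12, P2ry13, P2ry6, Gpr34, P2rx4, P2rx7, Adora2a, Adora3 and Entpd1, which are 9 of its 28343 genes. Of these, 7 had enough counts to be tested, and Adora3 and Entpd1 did not.

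Damaged or active cells release ATP, ADP and UDP, and surface enzymes break these down stepwise to adenosine. Microglia read the intact nucleotides with P2Y receptors, which act through G proteins, and P2X receptors, which are ATP-gated cation channels, and read adenosine with its own receptors. In the resting state they carry P2Y12, an ADP receptor coupled to Gi that guides their processes to sites of injury, and the gene is widely used as a marker of unactivated microglia.

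Retinal microglia were sorted from Dark Agouti rats that were injected at 8 to 10 weeks of age, after 12 hours of fasting. The 4 diabetic libraries (numbered 1, 2, 4 and 5) came from rats given streptozotocin, a toxin of pancreatic beta cells, at 55 mg/kg, with hyperglycaemia, and the 5 control libraries (numbered 1, 3, 4, 5 and 6) from rats given citrate buffer, with normal blood glucose. Retinas were collected 4 weeks later, and diabetic rats whose glucose had passed 30 mmol/l were given 2 units of insulin. Whole retinas were digested with papain, and cells positive for CD11b, an integrin chain that many myeloid cells carry, were taken by flow cytometry. RNA was amplified from them with a full-length kit that does not keep the strand. The labels do not say whether a library is 1 animal or a pool, so p-values measure the spread between these libraries.

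Libraries held 9156591 to 11332823 counts in the control group and 6228756 to 9629829 in the diabetic group. The sort held microglia: 8 of 9 microglia markers were tested, their summed level was 23270 to 25870 CPM (counts scaled to a common library size) in control libraries against 21560 to 22520 in diabetic ones, and Siglech was at 0 in every library. Markers of border macrophages, which also pass a CD11b gate, were present, with 7 of 7 tested genes above 0 on the log2 fold change scale and a summed level of 371.3 to 762.4 CPM in control and 631 to 1378 in diabetic libraries. The neutrophil list summed to 302 to 379 CPM in controls and 305 to 365 CPM in diabetes, with Mpo at 0 in all. Its most abundant gene, Csf3r, was lower in diabetes without overlap, as were 4.16% of all genes (log2 fold change -0.19, SE 0.08, quasi-likelihood adjusted p = 0.246). The rest of the list summed to 0.428 to 9.34 CPM in controls and 17.9 to 73.7 CPM in diabetes. Of the inner retinal neuron markers 8 of 9 were above 0 (70.0 to 167 CPM against 110 to 328 CPM summed), with Pcp2 at 1.61 (adjusted p = 0.0607) and Isl1 at 1.68 (adjusted p = 0.0895), and of the photoreceptor markers 8 of 8 were (234 to 1260 CPM against 359 to 1781 CPM). Of the monocyte markers 2 of 4 were above 0, with Plac8 at 1.46 (adjusted p = 0.0947) and Ccr2 at 0 in all, and of the vascular markers 0 of 6 were, with Tagln at -2.13 (adjusted p = 0.1004). No marker of these lists passed the test. The part of these cells in the values below was not tested, and in bulk RNA fewer cells of a type and less RNA per cell cannot be told apart.

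Controls 4 and 6 stood apart from the other 3 controls. A list of 18 immediate-early and stress genes that respond to cell isolation took 2.32% and 2.88% of their counts, against 0.432% to 0.976% in controls 1, 3 and 5 and 1.27% to 2.04% in the diabetic libraries. The result of each tested receptor is therefore also given without these libraries.

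None of the 7 tested receptors differed between diabetic and control microglia at an adjusted p below 0.05 (edgeR quasi-likelihood test, Benjamini-Hochberg over all genes), where 0.0681% of 11748 genes passed. None had an unadjusted p below 0.05 either, where 18.9% of genes did, and none had groups that did not overlap, where 8.44% of genes did. The fitted log2 fold changes, diabetic minus control, ran from -0.27 for P2ry13 to 0.34 for P2ry6, and their median was -0.04 against 0.00 (0.00176) over all tested genes. Within the control group the spread was wide for P2ry6, P2rx4 and P2ry13 (coefficients of variation of 34.6%, 30.8% and 23.5%), with controls 4 and 6 or control 6 at the low end, and wider still for the scarcely counted Adora2a (90.8%), where control 5 was lowest.

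**Figure D1:**
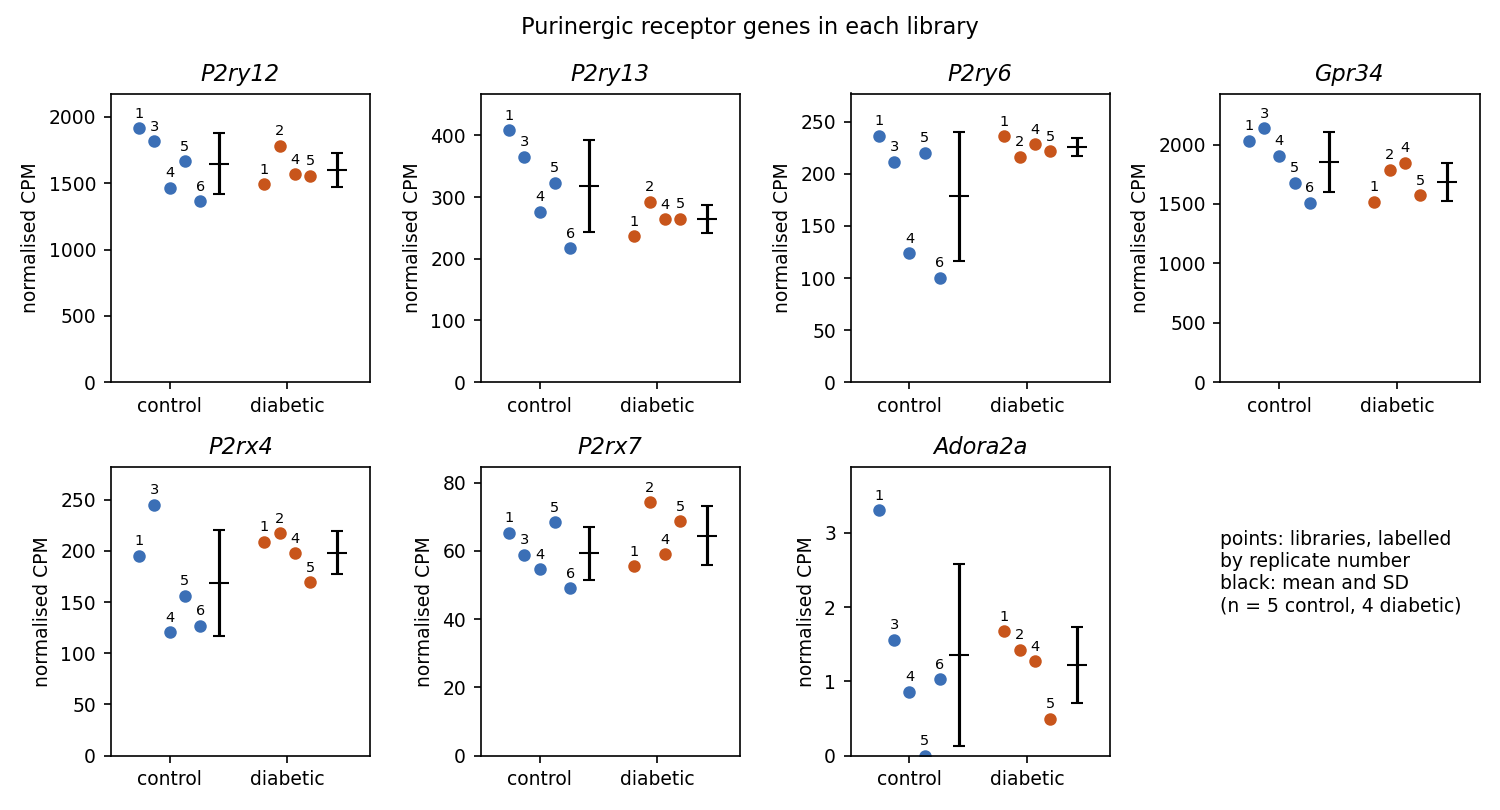
Normalised CPM (vertical axes, from 0) of the 7 tested genes in each library, grouped as control (blue, n = 5) and diabetic (orange, n = 4), with replicate numbers beside the points and the mean and SD in black. The groups overlap in every panel, and controls 4 and 6 are the lowest points for P2ry6 and P2rx4.

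P2ry12 was read at 1916, 1816, 1467, 1668 and 1366 CPM in controls 1, 3, 4, 5 and 6 and at 1493, 1784, 1568 and 1556 CPM in diabetic libraries 1, 2, 4 and 5. Every diabetic value was inside the range of the controls. Mean levels were 1647 ± 230.8 CPM (SD, n = 5) and 1600.2 ± 127 CPM (SD, n = 4). The log2 fold change was -0.04 (SE 0.11, 95% interval -0.28 to 0.19, quasi-likelihood adjusted p = 0.859), so the interval covers a level in diabetic microglia from 0.826 to 1.14 times that of controls. The small difference has no stable sign: it was 0.03 with upper-quartile factors, 0.06 with no factors, 0.04 with the cell isolation share as a covariate and 0.02 without control 1. Without controls 4 and 6 it was -0.18 (adjusted p = 0.407 by the same test).

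P2ry13, a second ADP receptor coupled to Gi that lies next to P2ry12 on chromosome 2, was read at 408, 365, 276, 323 and 217 CPM in the controls and at 236, 293, 264 and 265 CPM in the diabetic libraries. Controls 1, 3 and 5 were above every diabetic library, while control 4 fell among them and control 6 below. Its fitted log2 fold change was -0.27 (SE 0.16, 95% interval -0.61 to 0.08, adjusted p = 0.367 by the quasi-likelihood test). Without controls 4 and 6 it was -0.48 with an unadjusted p of 0.000901 and an adjusted p of 0.132, and P2ry13 was then the 1 receptor of 7 whose groups did not overlap, against 15.3% of all genes. Without control 1 alone it was -0.16 (adjusted p = 0.529). At an unadjusted p below 0.05, 14.9% of genes passed in the comparison without controls 4 and 6, and none passed after adjustment.

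P2ry6, the UDP receptor coupled to Gq that is known for driving phagocytosis, had the highest fitted log2 fold change of the 7 receptors. Its levels were 237, 212, 124, 220 and 100.4 CPM in the controls and 236, 217, 229 and 222 CPM in the diabetic libraries. The 4 diabetic libraries and controls 1, 3 and 5 were within 212 to 237 CPM, and controls 4 and 6 were well below them. The coefficient of variation was accordingly 34.6% among controls and 3.78% among diabetic libraries. With all 9 libraries the log2 fold change was 0.34 (SE 0.24, 95% interval -0.20 to 0.87, quasi-likelihood adjusted p = 0.448), and without controls 4 and 6 it was 0.01 (adjusted p = 0.975). Without control 6 alone it was 0.19.

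Gpr34, the receptor for lysophosphatidylserine, was read at 2031, 2138, 1906, 1680 and 1512 CPM in the controls and at 1519, 1789, 1848 and 1574 CPM in the diabetic libraries. Controls 1, 3 and 4 were above the diabetic libraries and controls 5 and 6 were among or below them. For Gpr34 the log2 fold change was -0.14 (SE 0.11, 95% interval -0.38 to 0.10, quasi-likelihood adjusted p = 0.492), and it was below 0 under all 20 other settings tried, from -0.22 (the value without controls 4 and 6, adjusted p = 0.368) to -0.04, with -0.08 without control 3.

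P2rx4 encodes an ATP-gated channel of microglia known from nerve-injury pain. Its levels were 195, 245, 121, 156 and 127 CPM in the controls and 209, 217, 198 and 169 CPM in the diabetic libraries. As for P2ry6, controls 4 and 6 were the lowest of the 9 libraries, but here control 3 was the highest. The log2 fold change was 0.23 (SE 0.20, 95% interval -0.20 to 0.66, quasi-likelihood adjusted p = 0.524) with all libraries and -0.01 without controls 4 and 6. Without control 3 it was 0.41, with an unadjusted p of 0.0218 and an adjusted p of 0.202, and it was 0.13 without control 4 and 0.14 without control 6.

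P2rx7, the lower-affinity ATP channel whose opening leads to potassium efflux and inflammasome assembly, is the tandem neighbour of P2rx4 on chromosome 12. Its levels were 65.4, 58.9, 54.7, 68.5 and 49.1 CPM in the controls and 55.6, 74.3, 59.1 and 68.8 CPM in the diabetic libraries. The groups overlapped over most of their range. Fitted over all libraries, the log2 fold change was 0.12 (SE 0.13, 95% interval -0.16 to 0.39, quasi-likelihood adjusted p = 0.617) and 0.00 (-0.00292) without controls 4 and 6, and it ranged from 0.04 without diabetic 2 and 0.06 without control 6 to 0.18 without diabetic 1. Controls 4 and 6 were the lowest 2 libraries here too, at a coefficient of variation among controls of 13.2% against 30.8% for P2rx4.

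Adora2a encodes the adenosine receptor coupled to Gs that is known for process retraction in activated microglia. It was near the limit of detection, with 35, 18, 8, 0 and 8 counts in the controls and 17, 14, 8 and 5 counts in the diabetic libraries. The 0 in control 5 allows a level of up to 0.321 CPM (3 counts, counting error only). Control 1 was the highest and control 5 the lowest of all libraries, so the control group spans the diabetic group. The log2 fold change of -0.17 had an SE of 0.73 and a 95% interval from -1.77 to 1.43 (quasi-likelihood adjusted p = 0.917), an interval that covers 0.293 to 2.70 times the control level. Without controls 4 and 6 the value was -0.43 (adjusted p = 0.855).

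**Figure D2:**
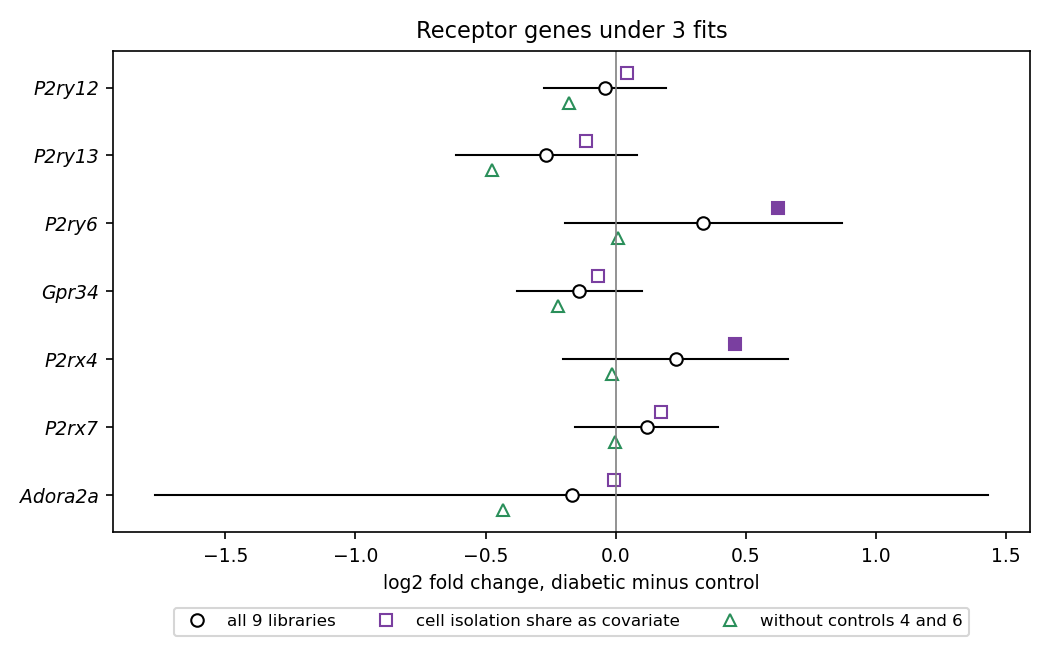
Log2 fold change, diabetic minus control, of the 7 tested genes under 3 fits, with black bars for the 95% interval of the fit to all 9 libraries and filled symbols for an adjusted p below 0.05. P2ry6 and P2rx4 are filled with the cell isolation share as a covariate (0.63 and 0.46) and lie at 0.01 and -0.01 without controls 4 and 6.

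The comparison depends on how controls 4 and 6 are handled. With the log2 share of counts on the cell isolation list as a covariate, 2 of the 7 receptors passed, both higher in diabetic microglia: P2ry6 with a log2 fold change of 0.63 (adjusted p = 0.0144) and P2rx4 with 0.46 (adjusted p = 0.0227, both by the quasi-likelihood test). In that fit 13.3% of all genes passed, 4.95% of them in the higher direction as a share of genes tested. Leaving out controls 4 and 6 removed both differences, as given above. Control 6 was the lowest of the 9 libraries for 5 of the 7 receptors, against 19.2% of tested genes, and controls 4 and 6 together were the lowest 2 for 4 receptors, against 12.5% of tested genes. The part of cell isolation in the low values of these libraries was not tested.

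Over all 9 libraries Pearson's r between receptor level and cell isolation share was below 0 for 6 of the 7 receptors, but none of the 7 relations passed adjustment (exact permutation tests, two-sided, Benjamini-Hochberg over 7 relations). The relation was not computed for other genes, so this count has no share of all genes beside it. P2ry13 had a Pearson r of -0.78 between its log2 CPM and the log2 share (exact permutation p = 0.0124, adjusted p = 0.087) and a Spearman rho of -0.68 (exact p = 0.0503, adjusted p = 0.176). For P2ry12 the Pearson r was -0.72 (exact permutation p = 0.0267, adjusted p = 0.0936) and the Spearman rho -0.80 (exact p = 0.0138, adjusted p = 0.0968). Without controls 3 and 5, the 2 libraries farthest from the median share, r was -0.77 for both (-0.766 and -0.773). Without control 1, the relation of P2ry13 alone passed (r -0.85, exact permutation adjusted p = 0.0424). Gpr34, P2rx4 and P2ry6 gave r of -0.67 (-0.665), -0.62 and -0.55, with exact permutation adjusted p of 0.115, 0.136 and 0.144, and rho of -0.57, -0.57 and -0.43, with adjusted p of 0.211, 0.211 and 0.35. Without controls 3 and 5 their r was -0.64, -0.68 and -0.76. P2rx7 and Adora2a gave r of -0.27 and 0.01 and a rho of -0.32 each, with exact permutation adjusted p of 0.564 and 0.989 for r and 0.41 for each rho. Their r was -0.43 and -0.72 without controls 3 and 5. Each group has fewer than 6 libraries, so no relation was computed within a group.

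**Figure D3:**
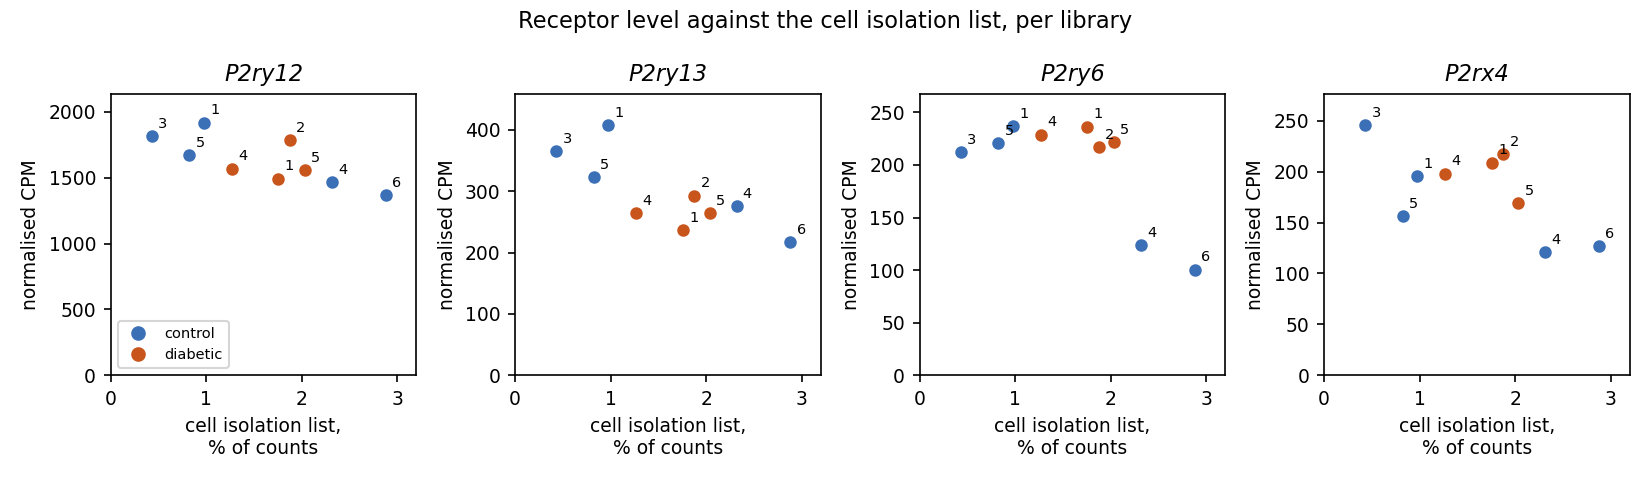
Normalised CPM (vertical axes) of P2ry12, P2ry13, P2ry6 and P2rx4 against the percent of counts on the cell isolation list (horizontal axes), 1 point per library, blue for control and orange for diabetic. Controls 4 and 6, at 2.32% and 2.88%, are far below the remaining 7 libraries for P2ry6, whereas the P2ry13 points at the 3 lowest shares (controls 1, 3 and 5) are above all others.

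The receptors differed in how alike their profiles over the 9 libraries were. As a measure of likeness, the root mean square difference of log2 CPM after each gene's mean was subtracted was used, where 0 is an identical profile. Among the members, the closest pair was P2ry12 and Gpr34 at 0.125, followed by P2ry12 and P2rx7 at 0.134 and by P2ry12 and P2ry13 at 0.148. P2rx4 was nearer to P2ry12 (0.252) and P2ry6 (0.256) than to its tandem neighbour P2rx7 (0.301). These member pairs were not limited to genes of like spread, and genes of low spread lie close on this measure. The SD of log2 CPM was 0.161 for P2ry12, 0.182 for Gpr34, 0.191 for P2rx7 and 0.291 for P2ry13. It was 0.351 for P2rx4 and 0.454 for P2ry6, so the order of pairs is no order of likeness in shape. The 3 tested genes most like P2ry12 were Lmf1 (0.0716), Setdb1 (0.0776) and Cdk16 (0.0781), among 6679 candidates of like spread whose median difference was 0.234. For P2ry6 they were Ankrd49 (0.0709), B4galt7 (0.08) and Tradd (0.0853), against a median of 0.565. Those most like P2rx4 were Paox (0.0656), Trmt1 (0.106) and Glt8d1 (0.108), against a median of 0.442, and those most like P2rx7 were Mrps30 (0.0496), Rnf123 (0.0675) and Fam175b (0.0737), against 0.27. P2ry13 came nearest to Wrb (0.108), Tnfrsf21 (0.118) and Golt1b (0.122), and Gpr34 to Rnf130 (0.0823), Mettl14 (0.0877) and Bcap31 (0.0882). Adora2a, with few counts, was nearest to S100a16, Col2a1 and Synpr, at 0.381 to 0.439.

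Adora3, the adenosine receptor coupled to Gi, was listed at 0 in all 9 libraries, and Entpd1, which encodes CD39 and hydrolyses ATP and ADP to AMP, at 0 in 8 libraries and 1 count in control 6. These zeros cannot be read as absence. The deposited transcript assemblies place Adora3 at 2 loci on the plus strand of chromosome 2 of Rnor_6.0, chr2:208373154-208376803 (ENSRNOG00000050743) and chr2:208530864-208534506 (ENSRNOG00000015788). Their starts are 157710 bases apart. Each locus has 2 exons of together 1763 bases. In every library 1 assembled transcript without a reference name was found at the same relative position in both loci, and the coverage of all 9 such pairs was identical. Transcripts over the 2 loci on both strands came to a median of 23.6 and 23.7 TPM (a length-scaled share of all transcripts). On the strand of the gene alone, each locus was at 0 in 4 of 9 libraries. Among gene symbols that the assemblies tie to 2 identifiers, 36 of 101 (35.6%) were listed at 0 in all libraries, against 969 of 7652 (12.7%) of symbols with 1 identifier. Hprt1, an enzyme gene that every cell uses, was also listed at 0, while the widely used Actb, Pgk1 and Gapdh had 1588513, 8796 and 348 counts. The cause of the zeros of Adora3 and Entpd1 was not tested.

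No assembled transcript carried the name Entpd1, so its level could not be read there. In the RefSeq gene order Entpd1 is flanked by Tctn3 and Cc2d2b, which have no row in the table, and among the next genes Aldh18a1 and Ccnj were also listed at 0, while Zfp518a and Blnk had 1784 and 48735 counts over the 9 libraries. No level or fold is given for either gene from the count table.

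Levels of different genes can be compared only per length, and for this the assemblies give a TPM per reference exon base at each named locus. The loci on Rnor_6.0, all on the minus strand, are chr2:149441598-149444548 for P2ry12 (2 exons), chr2:149430854-149432106 for P2ry13 (1 exon), chrX:10023489-10031167 for Gpr34 (3 exons), chr12:39308025-39325673 for P2rx4 (12 exons) and chr12:39353613-39396042 for P2rx7 (13 exons). P2ry6, Adora2a and Entpd1 had no named locus and were not placed. Because the kit does not keep the strand, the sum over both strands is given first, a choice made after seeing the data. With transcripts of both strands summed, Gpr34 had a median of 549 TPM (range 318 to 864 over 9 libraries), P2ry12 525 TPM (334 to 696), P2ry13 226 TPM (177 to 350), P2rx4 65.9 TPM (35.5 to 98.3) and P2rx7 16.0 TPM (9.64 to 18.6). Gpr34 and P2ry12 were not ordered beyond their spread, since Gpr34 was the higher in 5 of 9 libraries. P2ry12 was above P2ry13, P2ry13 above P2rx4, P2rx4 above the Adora3 loci and these above P2rx7 in 9 of 9 libraries each on this scale, although only the ranges of P2ry13 and P2rx4 did not overlap. By median, the 3 genes for Gi-coupled receptors of ADP and lysophosphatidylserine thus stood above both P2X channel genes.

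**Figure D4:**
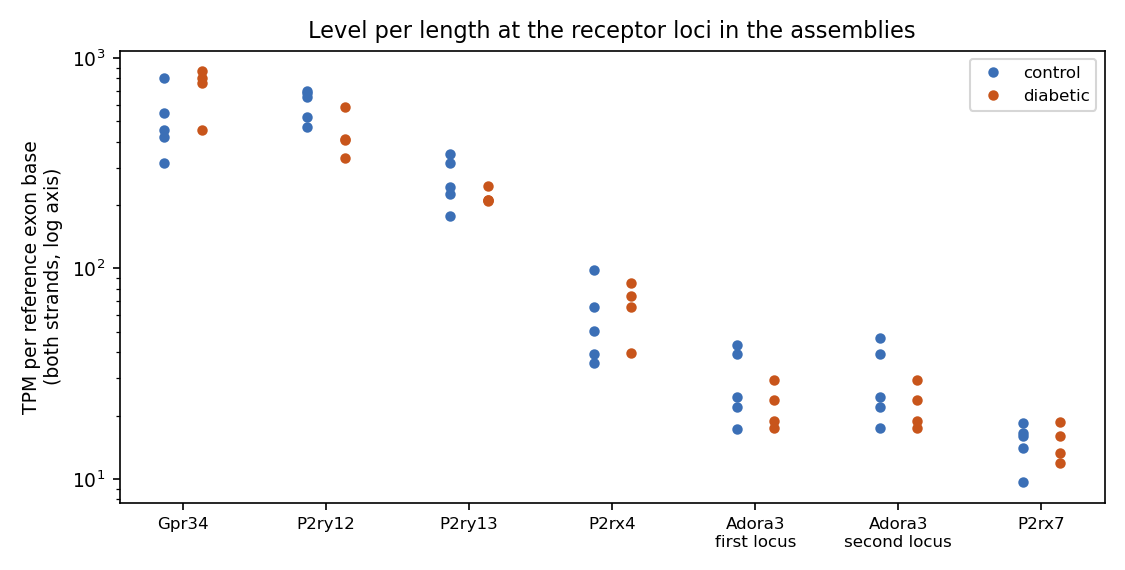
TPM per reference exon base on a log axis at the 7 named loci (horizontal axis), with transcripts of both strands summed, 1 point per library, blue for control and orange for diabetic. Median levels run from 549 TPM for Gpr34 to 16.0 TPM for P2rx7, and the 2 Adora3 loci carry like values near 23.7 TPM.

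These per-length levels hold the reads of overlapping genes and depend on the strand that the assembler gave. P2ry12 and P2ry13 lie inside Med12l, a mediator subunit gene on the opposite strand, which had a mean of 126.5 CPM in controls against 135.5 CPM in diabetes (log2 fold change 0.10, SE 0.12, quasi-likelihood adjusted p = 0.678). Gpr34 lies inside Cask (453 counts over all libraries), P2rx4 partly overlaps Camkk2 (247 counts) and Adora3 lies inside Tmigd3, by RefSeq. On the strand of the gene alone the medians were 245 TPM for P2ry12, 155 for Gpr34, 103 for P2ry13, 51.3 for P2rx4, 11.9 for P2rx7 and 4.8 (4.82) and 4.6 (4.56) for the Adora3 loci. The order then changed: the Adora3 loci were below P2rx7 in 8 of 9 libraries and P2ry12 was below P2ry13 in 3 of 9, while P2ry13 stayed above P2rx4 and P2rx4 above the Adora3 loci in 9 of 9. P2ry12 ran from 5.84 TPM in diabetic 1 and 6.83 in diabetic 2 to 341 in control 4, a spread that its counts do not show. P2ry12 with both strands summed was at 469 to 696 TPM in controls and 334 to 586 TPM in diabetic libraries, and Gpr34 at 318 to 805 and 457 to 864 TPM, so the groups overlapped on this scale as well. For Gpr34, control 5 and diabetic 1, 4 and 5 were at 762 to 864 TPM, and the remaining libraries at 318 to 549 TPM. Its medians were 456 TPM in controls and 780 TPM in diabetic libraries, whereas its counts had means of 1853.5 and 1682.7 CPM. The source of this split was not tested.

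The sequences before the starts of 3 receptor genes are shown because P2rx4 and P2rx7 are tandem neighbours that differed in their spread, and Gpr34 was among the members with the highest level per length. They are the 250 bases upstream of the RefSeq start on GRCr8, 5′ to 3′ on the gene's strand (minus in each case), at chr12:39523090-39523339 for P2rx4, chr12:39594923-39595172 for P2rx7 and chrX:11785837-11786086 for Gpr34. Capitals mark GAGGAA, the core recognised by PU.1, the lineage factor of macrophages, on either strand.
P2rx4: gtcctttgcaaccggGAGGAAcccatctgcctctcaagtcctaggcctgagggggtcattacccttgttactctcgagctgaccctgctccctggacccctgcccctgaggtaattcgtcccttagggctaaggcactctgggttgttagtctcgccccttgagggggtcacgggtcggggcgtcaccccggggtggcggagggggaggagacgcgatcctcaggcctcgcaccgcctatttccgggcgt
P2rx7: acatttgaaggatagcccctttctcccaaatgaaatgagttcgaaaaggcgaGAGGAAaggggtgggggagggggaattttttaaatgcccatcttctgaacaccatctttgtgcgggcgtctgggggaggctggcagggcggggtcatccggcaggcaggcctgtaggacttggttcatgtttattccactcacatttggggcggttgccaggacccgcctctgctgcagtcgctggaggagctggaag
Gpr34: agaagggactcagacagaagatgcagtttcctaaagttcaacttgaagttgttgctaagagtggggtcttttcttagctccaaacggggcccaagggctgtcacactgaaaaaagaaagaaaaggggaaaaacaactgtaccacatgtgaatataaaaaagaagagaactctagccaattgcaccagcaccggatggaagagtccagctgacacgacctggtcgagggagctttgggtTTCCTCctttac
RefSeq entries were matched for 6 of the 9 genes. The core was found in the windows of 4 of them (these 3 and Adora3) and in 23.3% of all 33469 windows of this length. The first base of the match is 235 bases before the start in P2rx4, 198 in P2rx7 and 12 in Gpr34. TGANTCA, the AP-1 site bound by Fos and Jun proteins, was found on either strand only in the Adora3 window among the 6, against 6.34% of all windows, and it does not overlap the PU.1 core there. A match in these letters is a description and no measure of binding.

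Around the receptors, 57 other genes of purinergic signalling were listed and 42 tested. None passed an adjusted p of 0.05, 3 had an unadjusted p below 0.05 and were higher (8.94% of all genes were), and 5 were lower (10.0% of all genes were). The median log2 fold change of the 42 was -0.09, against 0.00 (0.00176) over all tested genes. With DESeq2's Wald test 3 of 56 passed (3.36% of all genes), namely Gnai3 and P2rx1 as lower and Pycard as higher, with adjusted p of 0.00984, 0.0493 and 0.0208.

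Of the 5 remaining P2Y genes, P2ry14 and P2ry2 were tested. P2ry14, the receptor for UDP-glucose and other UDP sugars, was read at 61.6, 50.4, 39.1, 52.9 and 40.2 CPM in the controls and at 74.3, 61.2, 63.2 and 57.8 CPM in the diabetic libraries. Control 1 reached into the diabetic range, and controls 4 and 6 were again the lowest. Its log2 fold change was 0.39 (SE 0.14, quasi-likelihood adjusted p = 0.181). P2ry2, the receptor for ATP and UTP, differed by 0.02 (SE 0.24, adjusted p = 0.970 by the same test), with levels from 5.35 to 11.6 CPM.

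P2rx1 encodes a fast ATP-gated channel best known from platelets and smooth muscle. It was read at 64.6, 66.9, 65.2, 48.2 and 92.0 CPM in the controls and at 51.7, 46.4, 45.5 and 44.3 CPM in the diabetic libraries. Only control 5 fell among the diabetic values. For P2rx1 the log2 fold change was -0.52 (SE 0.16, 95% interval -0.86 to -0.18, quasi-likelihood adjusted p = 0.125), and -0.36 without controls 4 and 6 (adjusted p = 0.233 by the same test). Platelet markers summed to 6.42 to 9.78 CPM in controls against 4.90 to 6.80 CPM in diabetes, with Gp1bb and Tubb1 at 0 in all, and their part in this difference was not tested. P2rx3 differed by -0.43 (SE 0.27, adjusted p = 0.383) and the adenosine receptor Adora1 by -0.17 (SE 0.18, adjusted p = 0.605). Adora1 ran from -0.11 without control 3 or control 5 to -0.30 without control 6, and was -0.40 without controls 4 and 6 (adjusted p = 0.160).

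Among 16 enzymes that degrade nucleotides or convert nucleosides, 12 were tested and none passed. Entpd7, an intracellular relative of Entpd1, was at 0.642 to 1.04 CPM in controls and 1.18 to 2.35 CPM in diabetic libraries, from 6 to 23 counts a library. Its groups did not overlap, as for 4.27% of all genes in this direction (log2 fold change 0.95, SE 0.37, quasi-likelihood adjusted p = 0.206). Nt5e, which encodes CD73 and turns AMP into adenosine, was at 189 to 243 CPM in controls and 183 to 208 CPM in diabetic libraries (log2 fold change -0.19, SE 0.09, adjusted p = 0.285). Enpp1, an ectonucleotidase that cleaves ATP to AMP and pyrophosphate, differed by -0.85 with an SE of 0.43 (adjusted p = 0.304), and Pnp, the purine nucleoside phosphorylase, by 0.12 with an SE of 0.10 (adjusted p = 0.491). Without diabetic 2 Enpp1 was at -1.39 (adjusted p = 0.202), and Pnp was at 0.07 without diabetic 4.

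Of the genes for ATP release and nucleoside transport, 5 of 8 were tested. Lrrc8a, a subunit of the volume-regulated anion channel, was at 22.7, 21.0, 37.8, 33.1 and 35.1 CPM in the controls and 17.7, 21.9, 21.2 and 19.7 CPM in the diabetic libraries. Control 3 fell in the diabetic range, control 1 just above it, and controls 4, 5 and 6 were further above. Its log2 fold change was -0.57 (SE 0.19, quasi-likelihood adjusted p = 0.147), and -0.35 without controls 4 and 6 (adjusted p = 0.366 by the same test). Slc17a9, the vesicular nucleotide transporter, differed by -0.08 (SE 0.10, adjusted p = 0.673) and the nucleoside transporter gene Slc29a3 by 0.08 (SE 0.14, adjusted p = 0.761).

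All 10 genes listed for Gi signalling and process motility were tested, and none passed. Their fitted log2 fold changes ran from -0.60 to -0.02, 10 of 10 below 0 where 49.7% of all genes were. This count depended on the scaling. It was also 10 with median-of-ratios factors (49.5% of all genes). With upper-quartile factors it was 6 (40% of all genes), and with no factors 3 (35.1% of all genes). Gnai3, one of the Gi alpha subunits through which P2Y12, P2Y13 and Gpr34 signal, was read at 531, 578, 798, 568 and 821 CPM in the controls and at 426, 390, 417 and 502 CPM in the diabetic libraries. Every diabetic library was below every control (4.16% of genes had such groups in this direction). The log2 fold change was -0.60 (SE 0.15, 95% interval -0.92 to -0.29, quasi-likelihood adjusted p = 0.0933), and -0.38 without controls 4 and 6 (adjusted p = 0.147). Gnai2, the more highly counted Gi alpha gene, differed by -0.10 (SE 0.10, adjusted p = 0.594), with 1018 to 1427 CPM over the 9 libraries. The shared beta subunit gene Gnb1 differed by -0.31 (SE 0.10, adjusted p = 0.149) and Pik3cg, the PI3-kinase subunit activated by beta-gamma dimers, by -0.35 (SE 0.12, adjusted p = 0.172).

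In the list of inflammasome genes that follow P2X7 opening, 8 of 8 were tested and none passed. Pycard, the ASC adaptor that joins NLRP3 to caspase-1, was read at 191, 172, 153, 178 and 162 CPM in the controls and at 240, 209.9, 289.8 and 203 CPM in the diabetic libraries. All diabetic libraries were above all controls (4.27% of genes had such groups in this direction). Pycard had a log2 fold change of 0.46 (SE 0.11, 95% interval 0.21 to 0.71, quasi-likelihood adjusted p = 0.0991), and 0.38 without controls 4 and 6 (adjusted p = 0.207). Il18 differed by -0.20 (SE 0.09, adjusted p = 0.264) and Casp4 by -0.28 (SE 0.16, adjusted p = 0.338). Casp4 was at -0.14 without control 6 and at -0.06 without controls 4 and 6.

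Il1b, the cytokine released through that pathway, was read at 85.8, 56.4, 2668, 288 and 6383 CPM in the controls and at 363, 334, 132 and 459.5 CPM in the diabetic libraries. Controls 4 and 6, the libraries with the lowest P2ry6 and P2rx4, were above all others. Its log2 fold change was -2.56 (SE 1.49, quasi-likelihood adjusted p = 0.377) with all libraries and 1.16 without those controls (adjusted p = 0.521), so the sign rested on them.

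The enzymes that make and remove lysophosphatidylserine, the Gpr34 ligand, are Abhd16a and Abhd12. Abhd16a differed by 0.23 (SE 0.13, quasi-likelihood adjusted p = 0.341) and Abhd12 by -0.15 (SE 0.09, adjusted p = 0.362), and neither passed the threshold. Pla1a, a phospholipase that also makes the ligand, was not tested for want of counts.

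**Figure D5:**
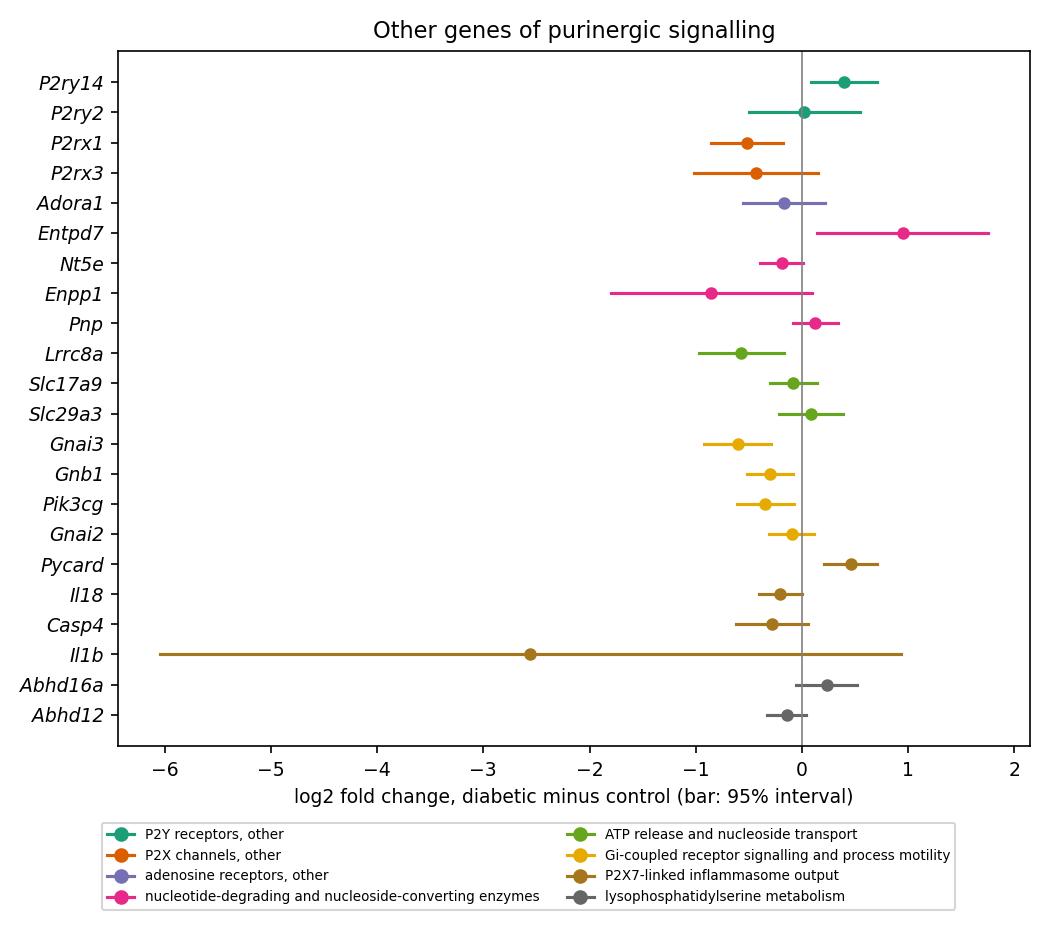
Log2 fold change, diabetic minus control, with its 95% interval for 22 other genes of purinergic signalling, coloured by list. Gnai3 (-0.60) and Pycard (0.46) have the smallest adjusted p of these genes, 0.0933 and 0.0991, and the bar of Il1b runs from -6.04 to 0.93.

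In the cell isolation fit 8 of the 42 genes passed, against 13.3% of all genes: P2ry14 and Pycard as higher and Gnai3, Gnb1, Lrrc8a, P2rx1, Il1b and Enpp4 as lower. Enpp4, an ectonucleotidase of the enzyme list, is named here because it completes this count, after its values were seen. Without controls 4 and 6 none passed, as none of 11902 genes did.

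The authors' deposited table of their own comparison lists the same 7 receptors and neither Adora3 nor Entpd1. Of the 12069 genes in the authors' deposited table, 254 (2.1%) have an adjusted p below 0.05, none of the 7 receptors among them. In the authors' deposited table the log2 fold changes were 0.06 for P2ry12, -0.17 for P2ry13, 0.42 for P2ry6, -0.03 for Gpr34, 0.33 for P2rx4, 0.22 for P2rx7 and -0.06 for Adora2a, with the smallest adjusted p of 0.459 at P2ry6. P2ry12 thus has the other sign there than in the normalised fit above.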

How the data were processed

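The members and the gene lists were chosen with earlier results of these data known, so no list is independent evidence. The authors deposited a table of whole-number counts per gene for 9 libraries, a table of their own comparison with log2 fold changes and p-values, per the file headers, and 1 transcript assembly per library with TPM values on the Rnor_6.0 build. Per the submitters' processing notes, bcl2fastq 2.18.0.12, TopHat2 2.0.14, StringTie 1.2.4 and edgeR were used, and how reads of overlapping or repeated genes were counted is not given in the sources used here.

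From the deposited counts, edgeR 4.0.16 (R 4.3.3) was run with TMM factors, filterByExpr (minimum count 10, minimum total 15), robust quasi-likelihood F tests and Benjamini-Hochberg adjustment over the 11748 genes tested, at a threshold of 0.05. CPM values are TMM-normalised. SEs are the fold change divided by the root of F. Alternatives were other factors, no filter, DESeq2 1.42.0, limma-voom 3.58.1, a likelihood-ratio test, a cell isolation covariate and libraries left out. The procedure was tested on simulated data. Named are all members, in each list the genes past the threshold or else up to 3 with the smallest p and the most abundant, overlapping neighbours, and the 3 genes most alike each member. Promoter sequences are RefSeq's (GRCr8), a build other than that of the files.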

Additional observations from a re-analysis of the deposited data

Results flagged for a closer look

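Of 72 groups of 4 or 5 libraries examined for a library far from the rest, 1 held one, where chance gives about 1 in 20. P2ry13 summed over both strands was at 247 TPM in diabetic 2 and at 209 to 212 TPM in the other 3 diabetic libraries. Signal was also present in the transcript assemblies at the loci of a gene that the count table lists at 0. The Adora3 loci had median levels of 23.7 TPM (ENSRNOG00000015788) and 23.6 TPM (ENSRNOG00000050743) over both strands, with no library at 0. On the gene's strand alone each was at 0 in 4 libraries, with a median of 0 in the diabetic group. Adora3 lies inside Tmigd3 by RefSeq, and the source of the signal was not tested.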

How the results depend on the processing

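Over the 20 alternatives to the main comparison, 0 of the 7 tested receptors passed in 19, and 2 passed with the cell isolation share as a covariate. The 57 purinergic genes had 0 calls in 18, 3 with DESeq2 and 8 with the covariate. Over all genes the 8 calls became 31 with upper-quartile factors, 29 with no factors, 42 with no filter, 598 with DESeq2, 172 with the likelihood-ratio test, 4 with limma-voom, 1566 with the covariate and 0 without controls 4 and 6 (1776 genes at an unadjusted p below 0.05). Leaving out 1 library at a time gave 0 to 75 calls: 75 without control 1, 1 without control 3 or 5, 2 without diabetic 2, 0 without control 4, diabetic 1 or diabetic 4, and 6 without control 6 or diabetic 5. Using no factors moved the median of all genes to 0.12 (log2).

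Whether the replicate numbers pair the libraries is not known. Same-numbered libraries had deviations correlated at 0.20, -0.11 and 0.02, and unlike-numbered ones at -0.35 to 0.30. So few same-numbered libraries cannot settle it. With a replicate block on libraries 1, 4 and 5 there were 0 calls (1150 genes at an unadjusted p below 0.05), as in the same libraries without the block (0 calls, 1249 genes, an alternative chosen after seeing the data). In these fits P2rx7 was -0.0404 with the block and -0.04005 without, Adora2a 0.17 with it, Slc29a3 -0.0204 and -0.0245, and Gnai2 0.01198 and 0.0125, each of the other sign than in the main comparison.

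Signs also turned for P2ry12 (0.03135 with upper-quartile factors, 0.0618 with no factors, 0.0443 with the covariate, -0.10 to 0.0177 with 1 library left out), Adora2a (0.52 with limma-voom, -0.48 to 0.47 with 1 library left out), P2ry2 (-0.0687 with the covariate, -0.11 to 0.15 with 1 library left out), Adora1 (0.0138 with the covariate), and Slc17a9 and Gnai2 (0.0272 and 0.0149 with no factors). Without controls 4 and 6 they turned for P2rx4 (-0.0126), P2rx7 (-0.00292), Slc29a3 (-0.0919) and Il1b (1.16). The cause was not tested.

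For the cell isolation share, 1 relation passed without control 1 and none otherwise, so the range with 1 library left out is 0 to 1. Its r ranged from -0.52 (-0.515) to 0.21 for Adora2a and from -0.52 (-0.515) to 0.0165 for P2rx7, and Adora2a was at -0.00542 without the list's most abundant gene, Egr1.

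Per length, taking both strands (chosen after seeing the data) in place of the gene's strand gave 525 TPM for P2ry12, 549 for Gpr34, 226 for P2ry13, 16.0 for P2rx7 and 23.7 and 23.6 for the Adora3 loci. Taking only transcripts with the reference name gave a median of 0 for P2ry12, P2ry13, P2rx4 and P2rx7. Adora2a had 0 to 35 counts a library.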
